A study of Rattus norvegicus with 24 samples.

Results

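Small RNA of the central nucleus of the amygdala (CEA) was compared between rats that had partial hepatectomy with electroacupuncture (HT + EA, 3 samples) and normal controls (NC, 3 samples). These 6 samples were taken by their labels from the 24 samples of the series, which covers 2 brain nuclei and 4 treatments. All rats were male Sprague-Dawley rats, 7 weeks old when purchased and then left to adapt before the experiment. NC rats had neither operation nor needles and were restrained like the others. HT + EA rats lost part of the left liver lobe and received low-frequency alternating current through needles at the hind-limb points Zusanli and Sanyinjiao, before and right after the operation. Brains were collected 24 h later than the last session. The groups therefore differ in the operation and in the stimulation together, and the effects of the 2 cannot be told apart in this comparison. The other CEA groups, hepatectomy alone (HT) and hepatectomy with needles but no current (HT + SEA), are given only as levels beside it. The labels do not say which libraries came from separate animals, so p-values measure the spread between these samples. In the main fit that spread was estimated mostly over all miRNAs together. The study's methods say that the pieces of brain did not come from the same animal.

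The CEA is the output nucleus of the amygdala and takes part in fear, pain and stress responses. Through its projections it reaches the paraventricular nucleus of the hypothalamus (PVN), which starts the hormonal stress response. A miRNA is a short RNA that guides a silencing protein to messenger RNAs, mainly through its seed, the bases 2 to 8, and usually lowers the output of those messengers. miRNAs with 1 seed share many targets. Each hairpin precursor can give a mature miRNA from its 5′ arm (5p) and from its 3′ arm (3p).

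Counts per library lay between 13402373 and 14913564 in HT + EA and between 9463321 and 13614860 in NC, and NC 2 was deeper than HT + EA 2. Levels are given as counts scaled to a common library total (CPM), and a count of 3, used here as the lower limit of detection, is worth 0.201 to 0.317 CPM in the 6 libraries. A set of 7 miRNAs chosen on these libraries as higher in the PVN summed to between 30390 and 58270 CPM over the 12 CEA libraries and to between 139600 and 175100 CPM over the 12 PVN libraries. The set was chosen on these libraries, so that gap restates the choice. Within NC the libraries stood apart. Library NC 1 had 51080 CPM of that set against 32620 in NC 2 and 34750 in NC 3, and HT + EA had 40910 to 51480. Over 534 miRNAs with a mean of at least 10 counts, the log2 CPM of NC 1 correlated more with HT + EA 1 (r = 0.994) and HT + EA 2 (0.993) than with NC 2 (0.986) or NC 3 (0.990).

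Few miRNAs differed, and the share called was close to the threshold itself. At an unadjusted p under 0.05 in edgeR's quasi-likelihood test, 58 of 1014 miRNAs differed (5.72%), 26 higher (2.56%) and 32 lower (3.16%) in HT + EA. At an adjusted p under 0.05 there were 6 (0.592%), all lower. They are miR-219a-5p, miR-144-3p, miR-493-5p, miR-32-5p, miR-29b-3p and miR-3587. The last pair cannot be told apart, so the 6 stand for 5 measurements. The groups did not overlap in CPM for 92 of 1014 miRNAs (9.07%). Scaling by library totals in place of edgeR's TMM turned the split of calls to 36 higher and 27 lower, and it moved the median log2 fold change of all miRNAs from -0.01 to 0.05. Without library NC 1 the calls rose to 106, 67 of them higher, with 30 at an adjusted p under 0.05. Without HT + EA 2 they were 37, with 0 at an adjusted p under 0.05. DESeq2 called 23, with 3 at an adjusted p under 0.05.

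**Figure D1:**
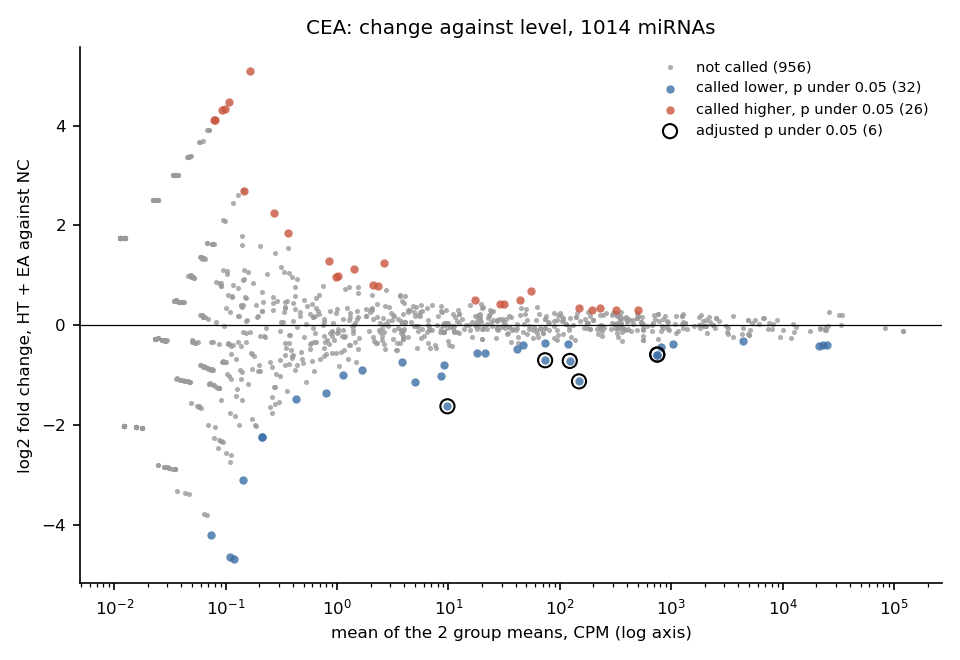
Change of each miRNA in the CEA against its level. The x axis is the mean of the group means in CPM on a log axis, the y axis the log2 fold change of HT + EA against NC from edgeR, and each point is 1 of 1014 miRNAs. The 6 circled miRNAs with an adjusted p under 0.05 all lie below 0, while the widest changes are of miRNAs far below 1 CPM.

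The mature sequences of the miRNAs on which the comparison turns are shown first because their seeds set them apart from each other. Sequences are from RefSeq (assembly GRCr8), 5′ to 3′, with the seed in capitals. RefSeq held a single sequence for 636 of the 703 known miRNAs in the table and for all 24 miRNAs named by the rule.
miR-219a-5p: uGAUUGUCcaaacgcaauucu
miR-144-3p: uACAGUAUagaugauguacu
miR-493-5p: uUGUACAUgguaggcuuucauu
miR-32-5p: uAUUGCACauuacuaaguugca
miR-29b-3p: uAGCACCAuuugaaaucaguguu
miR-3587: aACACUGAuuucaaauggugc
miR-33-5p: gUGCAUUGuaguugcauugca
miR-547-3p: aUUGGUACuucuuuaagugaga

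The sequences of miR-29b-3p and miR-3587 are complementary to each other over 21 bases, and the same holds over 20 bases for miR-218a-5p and miR-218b, which are both among the 12 lower miRNAs with the smallest p.
miR-218a-5p: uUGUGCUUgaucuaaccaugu
miR-218b: cAUGGUUAgaucaagcacaa
The counts of miR-218a-5p were 1.07 to 1.10 times those of miR-218b in the 6 libraries, and those of miR-29b-3p and miR-3587 were nearly the same in each. Among known miRNAs with a RefSeq sequence there were 45 pairs complementary over at least 18 bases. Both members had a mean of at least 10 counts in 41 of them, and in 29 of the 41 the counts lay within 10% of each other in every library. How reads were assigned to a strand is not given in the sources used here, so the members of such a pair cannot be told apart. All counts of miRNAs here still take each by its name. With such pairs taken once, the 58 calls would be 55 and the 12 named lower miRNAs 10.

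miR-219a-5p, which promotes the maturation of oligodendrocytes, the cells that make myelin, had the smallest p. It was at 104, 109 and 74.8 CPM in HT + EA and at 139, 261 and 204 CPM in NC. All HT + EA libraries were below all NC libraries. It fell by 1.12 ± 0.17 on the log2 scale (SE, adjusted p = 1.41e-07 with edgeR). The adjusted p of miR-219a-5p was 0.000194 with DESeq2. With edgeR it was 0.419 when at least 10 counts were required and 0.292 without HT + EA 2. The precursor Mir219-2 of miR-219a-5p also gives miR-219a-2-3p. That arm was far more abundant, at 4463, 4528 and 6310 CPM in HT + EA and 3595, 5898 and 4297 CPM in NC. This partner arm did not pass the test, with a log2 fold change of 0.10 ± 0.14. Its counts were nearly the same as those of miR-219b, which is complementary to it over 20 bases, so the members of this pair cannot be told apart. The ratio of the arms, 5p to 3p, was 0.0233, 0.0241 and 0.0119 in HT + EA and 0.0387, 0.0442 and 0.0474 in NC. It was thus lower in every HT + EA library than in any NC library, but a difference between the arms was not tested. miR-219a-1-3p, by its name from another hairpin, had a log2 fold change of 0.21 and was not called. The other members of the oligodendrocyte list, miR-338-3p and miR-338-5p, had log2 fold changes of -0.29 and 0.03 and were not called. The list of 4 thus had 1 member lower, where 3.16% of all miRNAs were called lower, and a median of -0.13, and its summed level was 5546 to 7592 CPM in HT + EA and 4533 to 7708 CPM in NC, so that the groups overlapped. In bulk samples, fewer cells of a type and less RNA per cell cannot be told apart.

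miR-144-3p, made in developing red cells together with miR-451, had 6.53, 5.89 and 2.48 CPM in HT + EA and 10.25, 15.2 and 18.4 CPM in NC. The groups were separate, and it fell by 1.62 ± 0.27 on the log2 scale (adjusted p = 5.05e-06 with edgeR). Its partner arm miR-144-5p had a mean of 8.99 ± 0.99 CPM in HT + EA and 11.4 ± 2.2 CPM in NC (SD, n = 3 each) and was not called. The ratio of 3p to 5p was 0.287 to 0.718 in HT + EA and 1.05 to 1.44 in NC. miR-451-5p, the most abundant miRNA of red cells, was at 108, 124 and 83.8 CPM in HT + EA and at 85.7, 148 and 159 CPM in NC. It was called lower, by 0.38 ± 0.17, but HT + EA overlapped NC 1, and the call held in 1 of 6 fits that left out a library. The fall was 0.18 without NC 3, 0.245 without HT + EA 3 and 0.57 without NC 1. In the red cell list 2 of 4 were lower, against 3.16% of all miRNAs, the median was -0.39 and the sum was 156 to 195 CPM in HT + EA and 160 to 249 CPM in NC.

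miR-493-5p, from the large imprinted miRNA cluster of the Dlk1-Dio3 locus, was at 96.0, 115.5 and 74.7 CPM in HT + EA and at 131.5, 161 and 158 CPM in NC. The groups were separate, and it fell by 0.71 ± 0.17 (adjusted p = 0.00918 with edgeR). Here the partner arm moved too. miR-493-3p fell by 0.36 ± 0.18 at an unadjusted p under the threshold, with overlapping groups, and was called in 2 of 6 fits that left out a library. Of 41 listed miRNAs of the locus, 31 had positive and 10 negative log2 fold changes, with a median of 0.11, against 494 positive of 1014 and a median of -0.01 over all miRNAs tested. Of the 41, 2 were called higher, miR-433-3p and miR-485-5p, and 3 lower, miR-136-5p, miR-376a-3p and miR-493-3p, beside 2.56% called higher and 3.16% called lower over all. miR-493-5p, miR-379-3p (0.34) and miR-666-5p (0.43) come from the locus too but are outside the 41, and the last 2 were called higher. miR-433-3p had 553, 508 and 634 CPM in HT + EA and 466, 437 and 417 CPM in NC, and its log2 fold change of 0.31 was 0.205, not called, without HT + EA 3. miR-136-5p had 1021, 1025 and 728 CPM in HT + EA and 1220, 1011 and 1204 CPM in NC, and its fall of 0.37 was 0.23, not called, without HT + EA 3. Likewise miR-376a-3p fell by 0.55 with all libraries and by 0.29 without NC 1 or 0.33 without HT + EA 3, not called in either case. miR-485-5p was called in 1 of 6 fits that left out a library. The 41 summed to 65400 to 71930 CPM in HT + EA and 55180 to 67930 CPM in NC.

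miR-32-5p lies within Tmem245 and was at 64.5, 59.8 and 48.3 CPM in HT + EA and 66.5, 113 and 91.0 CPM in NC. The groups were separate by a small margin at NC 1, and it fell by 0.70 ± 0.18 (adjusted p = 0.0245 with edgeR). Its seed is shared with 4 further miRNAs, whose sequences differ from it mainly in the 3′ part.
miR-25-3p: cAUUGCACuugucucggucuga
miR-92a-3p: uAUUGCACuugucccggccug
miR-92b-3p: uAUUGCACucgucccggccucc
miR-363-3p: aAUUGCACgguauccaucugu
None of the 4 was called. Their log2 fold changes were -0.02 for miR-25-3p, 0.20 for miR-92a-3p, 0.21 for miR-92b-3p and -0.32 for miR-363-3p.

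miR-29b-3p, a repressor of collagens and other matrix genes, was at 698, 769.5 and 379 CPM in HT + EA and at 919, 728 and 999 CPM in NC. HT + EA 2 lay above NC 2, so the groups overlapped. It fell by 0.585 ± 0.151 (adjusted p = 0.0245 with edgeR), and without HT + EA 3, the lowest library, by 0.335 (adjusted p = 0.603 with edgeR). The adjusted p was 0.0163 with edgeR and upper-quartile scaling, and 0.972 with DESeq2. The seed mates of miR-29b-3p are the other members of the miR-29 family.
miR-29a-3p: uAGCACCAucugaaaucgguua
miR-29c-3p: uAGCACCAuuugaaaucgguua
They had log2 fold changes of -0.09 ± 0.14 and -0.155 ± 0.179 and were not called, so 1 of 3 members was lower, against 3.16% of all miRNAs, and the median was -0.155.

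A further 6 lower miRNAs belong to the 12 with the smallest p, and none of them passed at an adjusted p under 0.05. miR-33-5p, which sits in the sterol regulator gene Srebf2 and represses cholesterol export, was at 9.003, 6.79 and 4.895 CPM in HT + EA and 8.45, 13.6 and 12.3 CPM in NC. It fell by 0.79 ± 0.26 on the log2 scale, and HT + EA 1 overlapped NC 1. miR-218a-5p, which comes from hairpins in the axon guidance genes Slit2 and Slit3, was at 21160, 22940 and 16950 CPM in HT + EA and at 23330, 25990 and 27960 CPM in NC. The groups were separate, and it fell by 0.40 ± 0.14, as did miR-218b by 0.41 ± 0.14. Without NC 3 miR-218a-5p fell by 0.31 and was not called. miR-153-3p, from the secretory granule gene Ptprn2, fell by 0.44 ± 0.15, and by 0.19 without HT + EA 3, which ended the call. miR-34b-5p, enriched in cells with motile cilia, was at 3.30, 3.43 and 2.95 CPM in HT + EA and at 2.33, 13.4 and 4.85 CPM in NC. Its fall of 1.14 ± 0.32 rested on NC 2 and was 0.25, not called, without it, and the call was also lost without HT + EA 2. miR-184 had 2.20, 12.2 and 3.29 CPM in HT + EA and 3.06, 10.6 and 20.2 CPM in NC. Its fall of 1.02 ± 0.30 was 0.25, not called, without NC 3, and 2.09 without HT + EA 2.

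None of the higher miRNAs passed at an adjusted p under 0.05 in this fit. miR-547-3p, from the X chromosome, had the smallest p among them, with 4.74, 3.66 and 2.95 CPM in HT + EA and 1.37, 2.13 and 1.03 CPM in NC. The groups were separate at these low levels, and its rise was 1.25 ± 0.37 as a log2 fold change (adjusted p = 0.0959 with edgeR). miR-653-5p and miR-653-3p are the arms of a hairpin in Calcr, the calcitonin receptor gene. miR-653-5p had 81.3, 75.1 and 52.5 CPM in HT + EA and 93.1, 13.0 and 18.1 CPM in NC. NC 1 was above every HT + EA library, and NC 2 and NC 3 were far below. Its log2 fold change was 0.70 ± 0.23 with all libraries, 2.14 without NC 1, 0.26 without NC 2 and 0.33 without NC 3, and the call was lost in the last 2 cases and without HT + EA 2 (0.65). miR-653-3p had 2.34, 1.57 and 1.95 CPM in HT + EA and 1.59, 0.955 and 0.0933 CPM in NC, the last being a single count. Its log2 fold change of 1.12 ± 0.45 was 1.78 without NC 1 and 0.61, not called, without NC 3, and it was called in 3 of 6 fits that left out a library.

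miR-298-5p and miR-296-3p have neighbouring hairpins on chromosome 3, near an imprinted locus. miR-298-5p was at 49.3, 53.6 and 54.3 CPM in HT + EA and at 53.5, 31.7 and 21.6 CPM in NC, again with NC 1 at the level of HT + EA. Its log2 fold change was 0.51 ± 0.20, and it was 0.96 without NC 1 and 0.26, not called, without NC 3, with the call kept in 3 of 6 such fits. miR-296-3p rose by 0.80 ± 0.38 from a mean of 1.68 ± 0.66 CPM in NC to 3.01 ± 0.73 CPM in HT + EA (SD, n = 3 each). miR-676, in the ectodysplasin gene Eda, had 226, 307 and 245 CPM in HT + EA and 198, 196 and 191 CPM in NC. miR-379-3p, from the Dlk1-Dio3 locus, had 172, 166 and 169 CPM in HT + EA and 142, 128 and 116 CPM in NC. Both had separate groups and small rises, of 0.35 ± 0.15 and 0.34 ± 0.16 on the log2 scale. Without HT + EA 2 the rise of miR-676 was 0.23, not called. In the 6 fits that left out a library, miR-379-3p and miR-296-3p were each called in 2 and miR-676 in 3. miR-483-3p lies in the growth factor gene Igf2 and was separate too, at 1.10, 1.64 and 0.939 CPM in HT + EA and 0.634, 0.441 and 0.373 CPM in NC, with a rise of 1.29 ± 0.53, or 1.04, not called, without HT + EA 2. The remaining ones are miR-28-3p (0.44 ± 0.21), miR-433-3p (0.31 ± 0.15), miR-375-3p (0.50 ± 0.24), which is typical of endocrine cells, and miR-130b-5p (0.81 ± 0.39). For miR-375-3p the rise was 0.11, not called, without HT + EA 3, and 1.04 without NC 2, and 4 of 6 such fits lost the call. miR-130b-5p and miR-28-3p were each called in 2 of 6 fits that left out a library, and their rises ranged from 0.62 without HT + EA 1 to 1.25 without NC 3 and from 0.295 without NC 3 to 0.675 without NC 2.

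**Figure D2:**
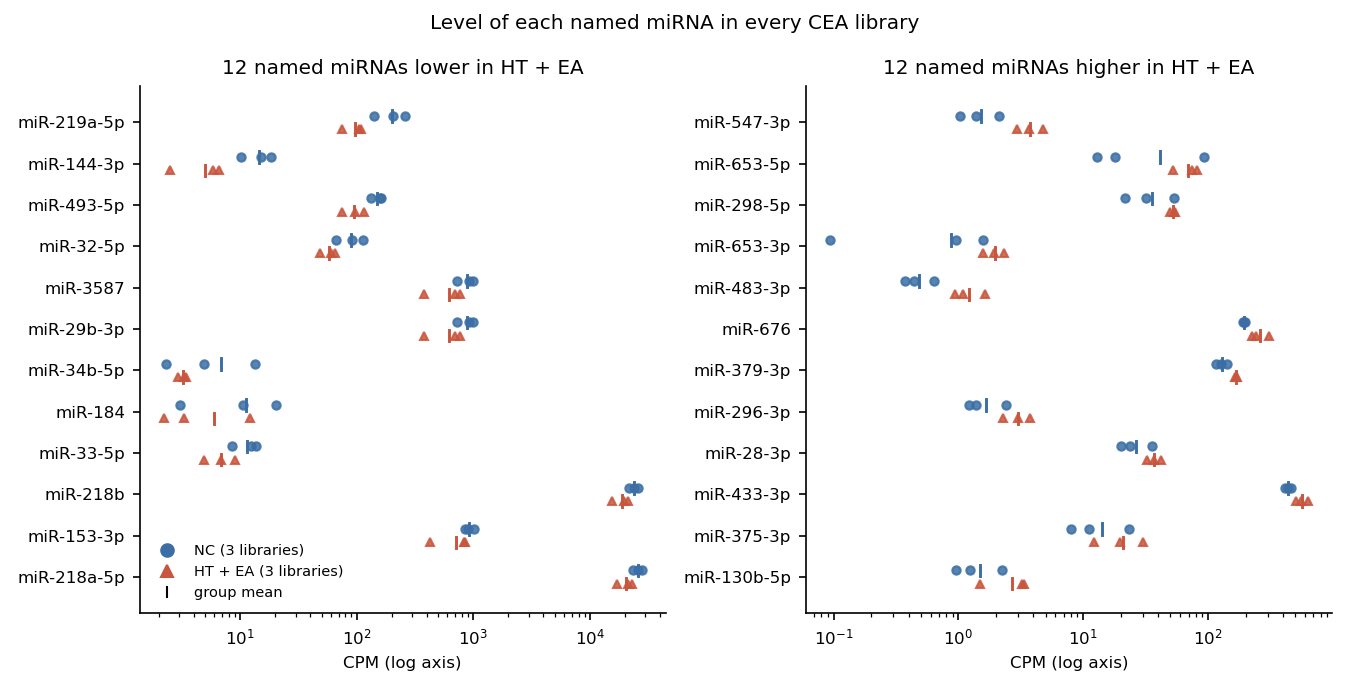
Level of the 24 named miRNAs in the 6 CEA libraries. The x axis is CPM on a log axis, circles are the 3 NC libraries, triangles the 3 HT + EA libraries and short vertical lines the group means. The groups are separate for 6 of the 12 lower and 5 of the 12 higher miRNAs, against 9.07% of all miRNAs, but the 24 were picked by their p in these libraries, which favours separation. For miR-653-5p and miR-298-5p 1 NC library lies among or above the HT + EA libraries.

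Many higher miRNAs were ones that are more abundant in the PVN. In the HT and HT + SEA libraries, 6 per nucleus, which the comparison does not use, 10 of the 12 named higher miRNAs (83.3%) had a higher mean in the PVN than in the CEA, against 290 of 523 known miRNAs with a mean of at least 10 counts (55.4%). The median log2 ratio of PVN to CEA was 1.17 for the named higher, -0.02 for the named lower and 0.07 for all 523. miR-653-5p had a mean of 456 CPM in those PVN libraries and 50.1 CPM in those CEA libraries. When the 523 were ordered by that ratio, the most PVN-biased of 4 bins of equal size held 13 of the 17 called higher and 2 of the 24 called lower, with a median log2 fold change of 0.17 against -0.06 in the most CEA-biased bin. Without NC 1 these medians were 0.27 and -0.07. The 7 PVN-biased miRNAs summed to 51480, 46680 and 40910 CPM in HT + EA and to 51080, 32620 and 34750 CPM in NC. Their part in the calls was not tested.

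The lower miRNAs were also poor in G and C. Over 479 known miRNAs with a mean of at least 10 counts and a RefSeq sequence, the log2 fold change rose with the GC content of the mature sequence (Pearson r = 0.27, Spearman rho = 0.34, across miRNAs that share the 6 libraries). In 4 bins of rising GC content the median log2 fold change was -0.09, -0.01, 0.03 and 0.14, and the lowest bin held 14 miRNAs called lower and 3 called higher, the highest 1 and 7. The named lower miRNAs had a median GC content of 38.1% and the named higher 52.3%, against 47.8% over all 479. In the PVN the same correlation was 0.09. A fit with the trend on GC content removed from each library was added after the data were seen. It called 31 miRNAs, 0 at an adjusted p under 0.05, and the same fit on these sequences without that step also called 31 and 0. miR-219a-5p fell by 1.04 in it, miR-144-3p by 1.47, miR-493-5p by 0.62, miR-32-5p by 0.55, and miR-547-3p rose by 1.39, each at an unadjusted p under 0.05. Of the 24 named, 13 were called in it and 11 were not, 2 lower (miR-184 and miR-153-3p) and 9 higher. The fit without that step left 9 uncalled, the same 2 lower and 7 higher.

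**Figure D3:**
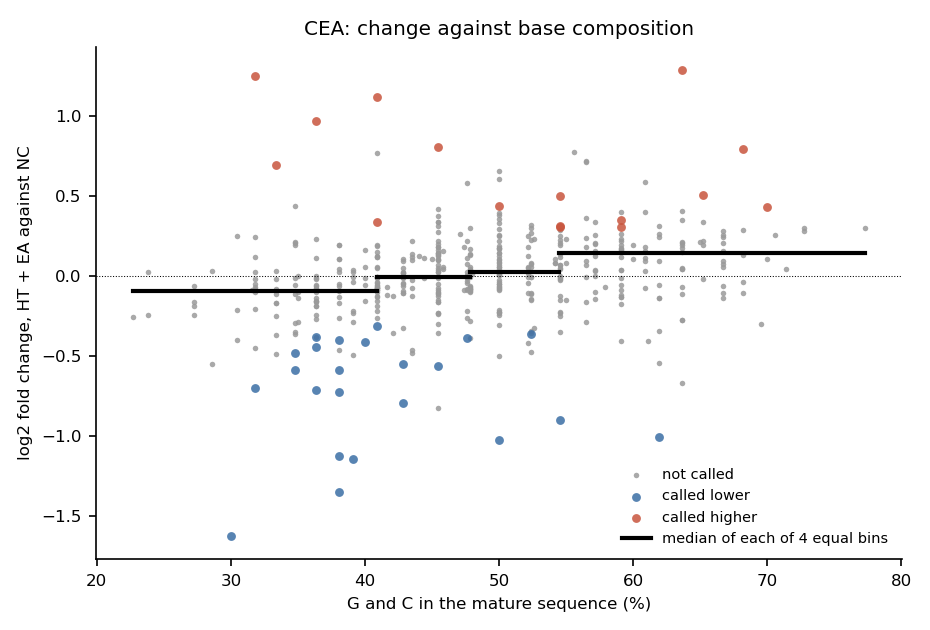
Change in the CEA against the base composition of 479 miRNAs. The x axis is the percentage of G and C in the mature sequence, the y axis the log2 fold change of HT + EA against NC, points are miRNAs and black lines the medians of 4 bins of equal size. The medians climb from -0.09 to 0.14, and called lower miRNAs crowd at the left.

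The same contrast in the PVN uses other libraries. Counts per library lay between 12134529 and 14828269 in PVN HT + EA and between 6584345 and 10668808 in PVN NC, without overlap. NC libraries were mostly the shallower ones in the CEA too, and the part of depth in the results of either nucleus was not tested. There 121 of 995 miRNAs were called (12.2%), 39 higher (3.92%) and 82 lower (8.24%). Upper-quartile scaling turned that split to 93 higher and 56 lower of 149 and moved the median log2 fold change of all miRNAs from -0.02 to 0.10. Of the 58 called in the CEA, 55 were tested in the PVN, and 23 were called there in the same direction, 20 lower and 3 higher. They are 39.7% of the CEA calls and 19.0% of the PVN calls. A single one, miR-187-3p, was called in opposite directions, higher by 0.31 in the CEA and lower by 0.43 in the PVN. Its CEA groups overlapped, and the CEA call held in 2 of 6 fits that left out a library, with a log2 fold change of 0.07 without HT + EA 1 and 0.47 without HT + EA 3. All 12 named lower miRNAs, which are 10 with complementary pairs taken once, were also lower and called in the PVN, against 8.24% of all miRNAs there. Under upper-quartile scaling all 12 were still lower and 10 were called, without miR-218a-5p and miR-218b. Of the 12 named higher, 3 were called higher there, miR-547-3p, miR-676 and miR-433-3p. Counts by sign alone were 10 of 12, with miR-653-5p at 0.00, and 9 to 11 under other scalings. miR-219a-5p was at 44.6, 40.55 and 54.8 CPM in PVN HT + EA and at 56.65, 102 and 95.9 CPM in PVN NC, and the groups were separate. miR-144-3p was at 6.46, 6.51 and 7.755 CPM against 12.45, 13.2 and 15.1 CPM, separate as well. miR-33-5p changed most among these 24 in the PVN, where it fell by 1.19 ± 0.21 on the log2 scale with 6.91, 4.203 and 6.88 CPM in HT + EA and 11.5, 14.6 and 13.99 CPM in NC.

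The difference in the effect between the nuclei was tested itself. Of 1069 miRNAs, 40 passed at an unadjusted p under 0.05 (3.74%), and 0 at an adjusted p under 0.05 with edgeR or with DESeq2. That 0 became 22 without CEA NC 1, 11 without PVN NC 2, 8 without CEA NC 2, and also 8 once replicate numbers entered the fit as a block. Among the 24 named, only miR-653-3p passed the unadjusted threshold. The smallest p in the whole table was that of miR-223-3p, a marker of neutrophils (adjusted p = 0.144 with edgeR). In the CEA it was at 1.24, 12.5 and 10.5 CPM in HT + EA and at 1.27, 10.7 and 10.8 CPM in NC, low in the library numbered 1 of each group, and its log2 fold change was 0.02 ± 0.32. In the PVN it was at 10.3, 8.98 and 11.9 CPM in HT + EA and 22.3, 89.0 and 81.2 CPM in NC, a fall of 2.67.

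**Figure D4:**
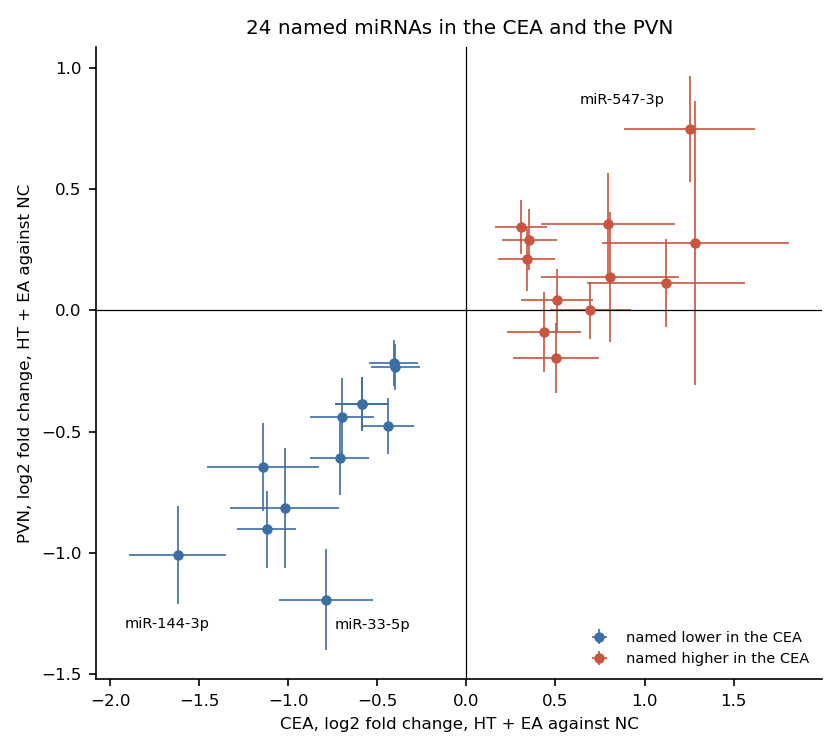
Change of the 24 named miRNAs in the CEA and in the PVN, from libraries that the nuclei do not share. The axes are log2 fold changes of HT + EA against NC, points are miRNAs and bars standard errors from edgeR. All 12 lower miRNAs lie below 0 on both axes, while 10 of the 12 higher ones lie at or above 0 on the PVN axis.

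The levels in the other CEA groups put the changes in context, without a test, since those comparisons would share the NC libraries. miR-219a-5p was at 75.4, 201 and 162 CPM in HT and at 114, 77.5 and 210 CPM in HT + SEA. In either group 1 library lay within the range of HT + EA and at least 1 within that of NC. The same held for miR-144-3p, with 2.88, 7.40 and 15.3 CPM in HT and 9.01, 6.04 and 16.7 CPM in HT + SEA. miR-493-5p was at 102, 158 and 138 CPM in HT and at 142, 127 and 125 CPM in HT + SEA, above the HT + EA libraries except for 1 HT library. miR-547-3p, at 4.37, 5.67 and 1.92 CPM in HT and 3.28, 3.36 and 2.84 CPM in HT + SEA, lay above every NC library in 5 of these 6 libraries.

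**Figure D5:**
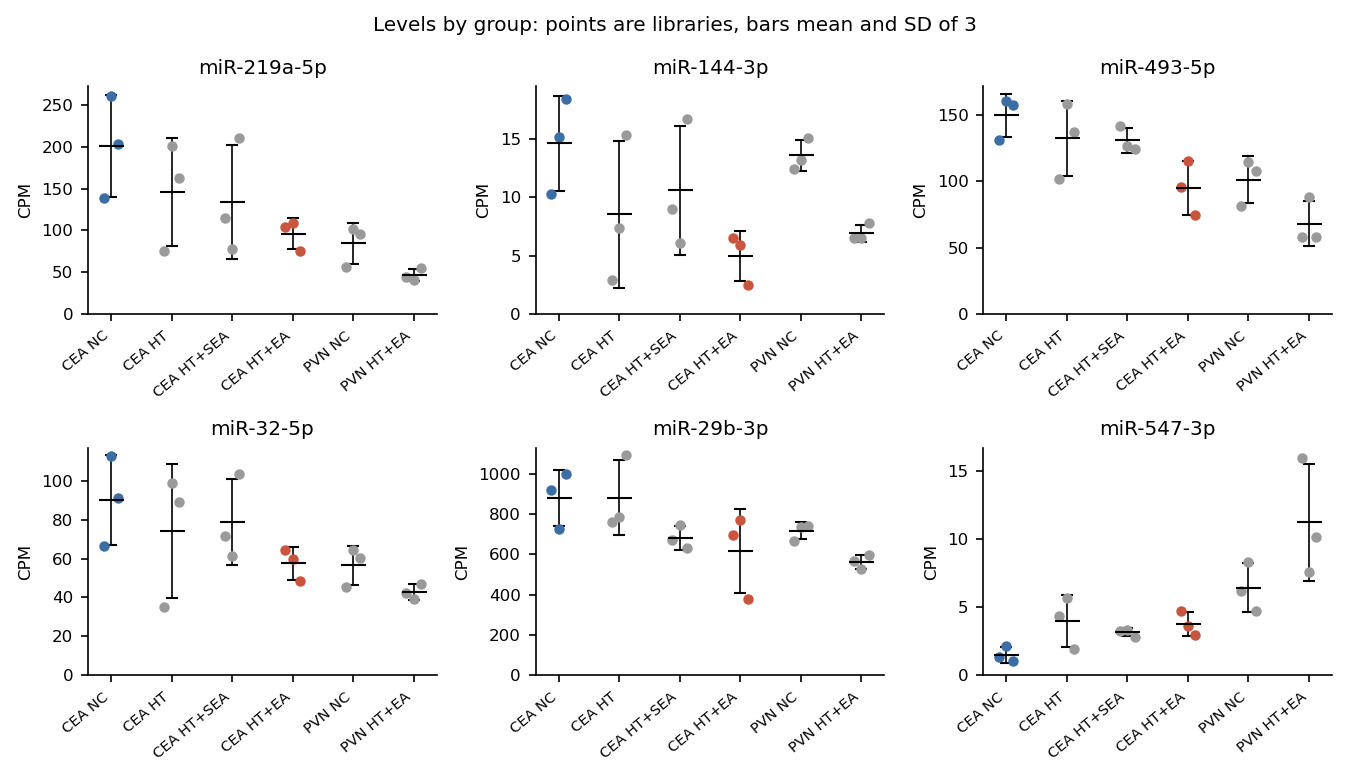
Levels of 6 miRNAs in the CEA groups and in PVN NC and HT + EA. The y axis is CPM from 0, points are libraries, and bars give the mean and SD of 3. HT and HT + SEA libraries of miR-219a-5p and miR-144-3p lie partly in the range of HT + EA and partly in that of NC.

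Markers of other cells are given as levels, and the makeup of the samples was not measured. Of 9 neuron-enriched miRNAs, 3 were lower, miR-128-3p, miR-153-3p and miR-218a-5p, against 3.16% of all miRNAs, the median was -0.11 and 8 of 9 were negative, against 519 of 1014. The 9 summed to 165300 to 177200 CPM in HT + EA and to 180000 to 201100 CPM in NC, without overlap, as held for 9.07% of single miRNAs in either direction. miR-128-3p, abundant in neurons, was at 21390, 21510 and 24100 CPM in HT + EA and at 21760, 29570 and 32760 CPM in NC, where NC 1 lay within HT + EA. Its fall of 0.38 was 0.225, not called, without NC 3, and the call was also lost without HT + EA 2. miR-9a-5p, a miRNA of neural cells that makes up most of that sum, was not called (-0.11 ± 0.14), nor was miR-124-3p (-0.003 ± 0.141). The 5 activity-regulated miRNAs of the miR-132 and miR-212 hairpins and miR-134 had 0 calls and a median of -0.02.

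In the myeloid and inflammation list 1 of 8 was lower, against 3.16% of all miRNAs, and the median was -0.09. That member is miR-142-3p, found in blood-forming cells, at 40.1, 36.3 and 30.0 CPM in HT + EA and 44.4, 53.1 and 45.3 CPM in NC. The groups were separate and it fell by 0.48 ± 0.20 on the log2 scale, or by 0.38, not called, without HT + EA 3. In the striated muscle list 1 of 4 was lower, set against the same 3.16%, miR-206-3p by 0.56 ± 0.23, and its level was 11.96 to 25.1 CPM in HT + EA and 16.1 to 31.9 CPM in NC. That call held in 2 of 6 fits that left out a library, with log2 fold changes of -0.345 without HT + EA 1 and -0.92 without HT + EA 3. Of the 6 ciliated cell miRNAs only miR-34b-5p was called, lower, while its own partner arm miR-34b-3p had a log2 fold change of 0.42 ± 0.23. The liver list (3), the endothelial and mural list (4), the choroid plexus and epithelial list (10) and the Hox list (4 tested) had 0 calls. The liver miRNA miR-122-5p was near that lower limit of detection, at 0.618 to 0.672 CPM in HT + EA and 0.661 to 1.12 CPM in NC.

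With 5.72% of all miRNAs called, lists of this size would hold few calls. In the glucocorticoid and stress axis list 0 of 8 were called (median -0.01), and in the opioid receptor list, mostly let-7 miRNAs, 0 of 12 (median -0.005). In the miR-30 family 1 of 5 was lower, against 3.16% of all miRNAs, miR-30e-5p by 0.31 ± 0.14, or 0.22, not called, without NC 3, and the median was 0.10. The miR-181 family and miR-17-92 with its paralogs had 0 calls of 4 and 9. A list of 6 of the miRNAs that the study's text names (miR-3548, miR-92b-3p, miR-3099, miR-667-5p, miR-1224 and miR-328a-3p) had 0 calls in the CEA, with log2 fold changes from 0.17 to 0.36. The study names them for the PVN, in HT against NC and HT + EA against HT. Nucleus and contrasts thus differ from those here. Of others that the text names, miR-331-3p (-0.05), miR-204-3p (-0.06), miR-34a-5p (-0.31) and miR-138-5p (-0.28) were not called. The 3p arm of miR-142, a miRNA that the text cites from earlier work on the hypothalamus, was called lower, as given above. The list of 10 CEA-biased and the list of 7 PVN-biased miRNAs had 0 calls, with medians of -0.12 and 0.21.

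Predicted miRNAs, which carry only a number, made up 331 of the 1014 tested and 10 of the 58 calls, 5 higher and 5 lower. They summed to at most 127 CPM in any of the 6 libraries. The 2 with the smallest p in each direction were novel_1145 and novel_1220, higher, and novel_1092 and novel_900, lower, and each was at 0 counts in all libraries of 1 group and at no more than 6 counts in any library of the other. Of the 58 calls, 16 were of miRNAs with a mean under 10 counts.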

How the data were processed

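The deposited table holds raw read counts made by the authors for each miRNA, 1098 rows of which 703 are known rat miRNAs and 395 predicted, for 24 libraries made with a NEBNext small RNA kit. According to the study's methods, reads were cleaned and mapped to the rat genome, and HISAT2 and featureCounts are named for the sequencing as a whole. The submitters' processing notes list HISAT2, featureCounts and a human genome build, and the series' text speaks of mice, although the organism is the rat. How miRNAs were counted is not given in the sources used here. A further 24 columns equal CPM to within 4.9e-05 and were not used. Libraries of mRNA and circRNA were not used here.

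Groups follow the tissue and treatment labels. Each contrast was fitted on its 6 libraries with edgeR 4.0.16 (limma 3.58.1, R 4.3.3), TMM scaling, glmQLFit and glmQLFTest, on every miRNA with 1 or more counts, and called at an unadjusted p under 0.05, as in the study, with the Benjamini-Hochberg adjusted p beside it. The prior degrees of freedom were 196 against 4 from the libraries, so p-values, unadjusted or adjusted, and SE of miRNAs that vary between replicates are too small. For miR-653-5p p was 0.00248 with edgeR and 0.457 with DESeq2. Errors are SE on the log2 scale. The difference between nuclei was fitted on 12 libraries. The code was tested on simulated counts. Libraries of a group differed by more than counting noise and none was a copy. The limit of 3 counts covers counting error only, while SE and SD also hold spread between libraries.

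The named miRNAs are, among known ones with a mean of at least 10 counts in the 6 libraries, the 12 with the smallest p in each direction, plus members of 21 lists and at most 2 predicted miRNAs in each direction. The members, lists and tests were chosen with earlier results of these data known, and the PVN-biased, CEA-biased and study lists rest on these libraries. Alternatives were DESeq2 1.42.0, other scalings, filters, spread estimates, fits over more groups, a replicate block, and leaving out each library. The comparison with the PVN level, the complementary pairs and the GC trend were added after the data were seen.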

Additional observations from a re-analysis of the deposited data

Results flagged for a closer look

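The effect of HT + EA against NC differed between the CEA and the PVN at an unadjusted p under 0.05 for 40 of 1069 miRNAs (3.74%) and at an adjusted p under 0.05 for 0 with edgeR. Of the named and listed miRNAs, 16 were among the 40, each given as the log2 fold change in the CEA minus that in the PVN. miR-187-3p, which is outside both sets, was among the 40 too, with 0.73 (adjusted p = 0.777 with edgeR). The CEA value was higher for miR-223-3p (2.67), miR-134-5p (0.72), miR-34c-3p (1.02), miR-206-3p (1.10), miR-379-5p (0.47), miR-653-3p (1.01), miR-382-5p (0.40), miR-1224 (0.55) and miR-133a-3p (0.77). It was lower for miR-128-3p (-0.47), miR-221-5p (-0.51) and miR-145-5p (-0.42). The 4 germline cluster miRNAs miR-741-3p (1.75), miR-743b-3p (2.83), miR-871-3p (3.65) and miR-881-3p (2.45) had log2 fold changes from -0.82 to -0.10 in the CEA, none of them called, and from -4.49 to -1.89 in the PVN. miR-128-3p fell by 0.38 in the CEA, where it was called (by 0.225, not called, without NC 3), and had a log2 fold change of 0.09 in the PVN. miR-134-5p, a dendritic miRNA of the Dlk1-Dio3 locus, had 0.16 in the CEA, not called, and fell by 0.56 in the PVN. The adjusted p of these 16 differences was 0.144 for miR-223-3p with edgeR and 0.584 or more for the others.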

How the results depend on the processing

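In the CEA, 58 miRNAs were called at an unadjusted p under 0.05 and 6 at an adjusted p under 0.05. DESeq2 gave 23 and 3, filterByExpr 26 and 0, known miRNAs only 37 and 0, and removal of the GC trend 31 and 0. DESeq2's size factors gave 3 at an adjusted p under 0.05, library totals 2, identical counts taken once 3, and at least 10 counts and all 4 CEA groups in the fit 0 each. In the PVN, DESeq2 called 79 in place of 121, and upper-quartile scaling 149, with 93 higher in place of 39. The prior degrees of freedom in the CEA were 196 in the main fit and 612 with upper-quartile scaling, which gave 8 at an adjusted p under 0.05. They were 5.21 with filterByExpr, 5.26 with at least 10 counts, 6.86 with known miRNAs only and 16.1 with all 4 CEA groups. Their part in these moves, or another cause, was not tested. The GC fit also covered fewer miRNAs. Leaving out 1 library at a time gave 37 to 106 calls and 0 to 30 at an adjusted p under 0.05 in the CEA, 83 to 128 calls in the PVN, and 0 to 22 differences between the nuclei at an adjusted p under 0.05. For the CEA, the calls moved by over 1.5 times without HT + EA 1 (38), HT + EA 2 (37) and NC 1 (106), and those at an adjusted p under 0.05 without HT + EA 2 (0), NC 1 (30), NC 2 (11) and NC 3 (3). For the difference between the nuclei the largest were 22 without CEA NC 1, 11 without PVN NC 2 and 8 without CEA NC 2.

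The labels give all groups the same replicate numbers. Deviations from the group mean correlated at -0.02 to 0.31 between same-numbered CEA libraries of HT + EA and NC, at 0.01 to 0.23 between the nuclei in HT + EA and at 0.13 to 0.38 between them in NC. In the same order the means were 0.17, 0.13 and 0.26, against -0.08, -0.06 and -0.13 for libraries with different numbers. Same-numbered libraries thus correlated more on average in each set. All 3 NC pairs between the nuclei were over 0.1, but not every pair of the other 2 kinds. The main fits did not pair libraries by number, so a shared structure is not covered by them. The CEA and PVN results may not be wholly independent. With the number as a replicate block, 43 miRNAs were called in the CEA and 9 at an adjusted p under 0.05, 2 of them higher with edgeR, miR-653-5p (log2 fold change 1.22, adjusted p = 3.73e-06) and miR-547-3p (1.27, 0.0398), and 8 differed between the nuclei at an adjusted p under 0.05 in place of 0.

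The 24 named miRNAs kept their sign under all 18 alternatives. Of these, 9 stayed called at an unadjusted p under 0.05 in each, 8 lower, or 7 with complementary pairs taken once (miR-219a-5p, miR-144-3p, miR-493-5p, miR-32-5p, miR-29b-3p, miR-3587, miR-33-5p and miR-218b) and 1 higher (miR-547-3p). The other 15 lost the call under at least 1. None of the 24 had an adjusted p under 0.05 in every alternative. For miR-219a-5p it ranged from 4.55e-14 to 0.419. Depth limits miRNAs under 10 counts, which gave 16 of the 58 calls.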
